A study of Mus musculus with 2 samples.

Results

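Transcript levels of Trp53, the gene of the tumour suppressor p53, and of 9 genes that restrain p53 or are switched on by it were examined in haematopoietic stem cells (HSCs) of adult and fetal mice. The 10 genes were taken by symbol as a pathway group, by known function and with no threshold on these values. All 10 were found, among 37820 genes of one deposited table and 28013 genes obtained by summing transcripts in another. The labels describe 2 samples of adult HSCs, sorted from bone marrow at an age of 6 to 8 weeks in the strain B6129SF1. The protocol text also describes fetal HSCs from the liver at E14.5 (embryonic day 14.5), which have no sample of their own among those analysed here. RNA was selected by its poly(A) tail. The labels name no treatment and no genotype other than the strain, and neither the sort markers nor how many mice were pooled. The series concerns the spatial organisation of the genome in fetal and adult HSCs.

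The values are FPKM, which scale fragments by feature length and by library size, so that levels of different genes can be compared per length. Each table has 1 column headed BM (bone marrow) and 1 headed FL (fetal liver). No column carries a replicate. There is therefore no SD, no n and no test, and "higher" and "lower" describe the deposited columns only. In bulk RNA, fewer cells of a type and less RNA per cell cannot be told apart.

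p53 is a transcription factor that is held at a low protein level in resting cells and accumulates after DNA damage and other stress. It then switches on genes for cell cycle arrest, repair, metabolic restraint and cell death, and also genes that shut it off again, chief among them Mdm2. In mouse HSCs p53 is known for promoting quiescence and for removing damaged cells. Because p53 is controlled mainly as a protein, its transcript level does not report its activity.

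The promoters of these genes were read first, since p53 acts by binding DNA. RefSeq promoter windows (GRCm38.p6, 250 bases before to 50 bases after a start site) were matched for 8 of the 10 genes, all but Trp53inp1 and Zmat3, in 10 windows. The p53 consensus site, 2 abutting 10-base repeats, was compared at every position; the site is its own reverse complement, so both strands were covered. The closest match lay in the promoter of Ccng1, which encodes cyclin G, with 19 of 20 bases matching, at positions -195 to -176 with the start site counted as 0. A match this close or closer was present in 0.0883% of 32841 RefSeq promoter windows of the same length (29 windows). The Ccng1 promoter is shown with that match in capitals.
Ccng1 promoter, chr11:40755237-40755536, minus strand: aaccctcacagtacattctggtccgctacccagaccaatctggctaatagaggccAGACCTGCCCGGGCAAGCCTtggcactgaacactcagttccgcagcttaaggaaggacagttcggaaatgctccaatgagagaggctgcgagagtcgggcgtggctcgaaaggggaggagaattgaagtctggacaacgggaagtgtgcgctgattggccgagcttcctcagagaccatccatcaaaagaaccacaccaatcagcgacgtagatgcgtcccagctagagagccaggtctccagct

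The next closest matches had 17 of 20 bases, in Trp53 itself, in Mdm4 and in 1 of the 2 promoters of Sesn1, a level reached by 6.29% of all windows. They are given alone, to be set beside the Ccng1 match.
Ccng1, best match: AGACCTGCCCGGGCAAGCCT
Trp53, best match: GGACTTGCCCTTACTTGTTA
Mdm4, best match: AGGTATGCTGTGGCAAGCCT
Sesn1 downstream promoter, best match: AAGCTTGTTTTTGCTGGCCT
Best matches elsewhere were 16 of 20 in Ppm1d, 15 of 20 in Mdm2, Phlda3 and Sesn2, and 14 of 20 in the upstream promoters of Sesn1 and of Mdm4. At 15 of 20 or better stood 76.6% of all windows, so these matches are commonplace. A looser pattern, CNNGNNNNNNCNNG, which keeps only the invariant C and G of each repeat, occurred in 9 of the 10 windows and in 70.2% of all windows. A match is a description of letters and not a measured binding site, and p53 sites known from first introns, such as that of Mdm2, lie outside these windows.

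The 4 columns were then set against each other through these genes. The BM column of the gene table held nearly the same values as the FL column of the transcript table. For 9 of the 10 genes the ratio of these columns was within 10% of the constant ratio seen over 3520 genes with a single linked transcript, whose median log2 ratio was 0.07 and of which 74.6% were that close. For Trp53 the gene table had 197 FPKM under BM and the transcript table had 187 FPKM under FL. For Sesn1 these values were 59.5 and 57.6 FPKM. Between the columns headed BM, 0 of the 10 genes were that close, and between the columns headed FL, 1 was. The exception in the close pair was Mdm4, at 17.9 FPKM in the gene table and 12.0 FPKM in the transcript table. Of the 14 Mdm4 transcripts in the annotation used, 2 are in the transcript table, and 10.4% of that FL column's FPKM lies in transcripts not linked to any gene; whether these hold the missing Mdm4 was not tested. Whether the header BM of the gene table marks adult HSCs is in doubt for this reason, and the tables are described separately, by header.

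**Figure D1:**
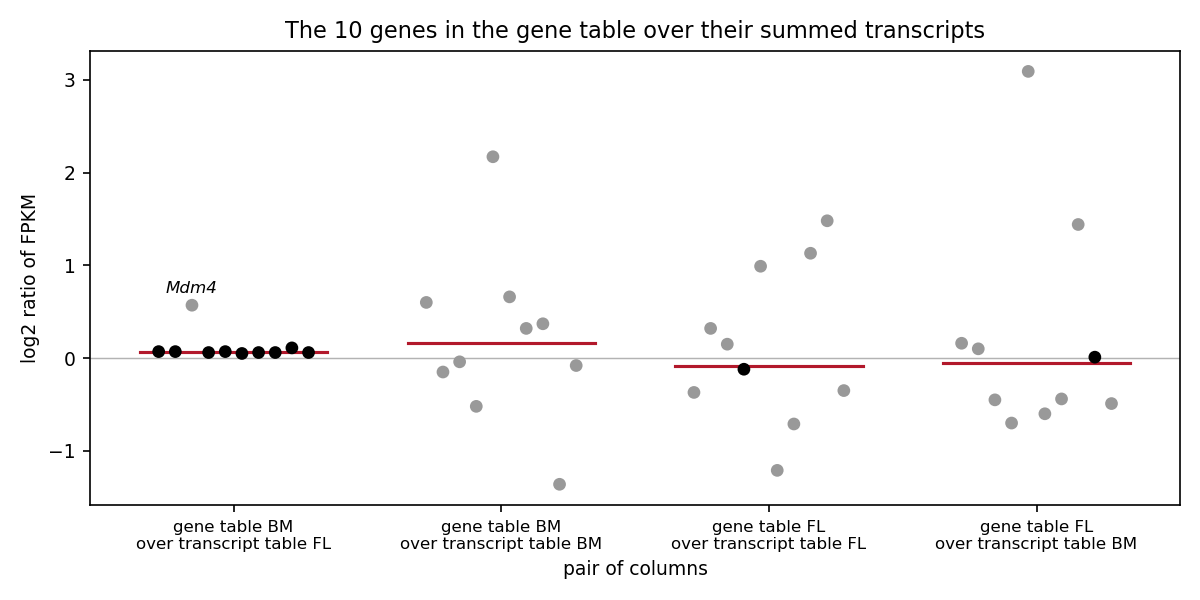
Log2 ratio of FPKM in the gene table over the summed transcripts for each of the 10 genes (points, in the order of the gene lists), for each pair of columns; red lines are medians over genes with a single linked transcript, and black points lie within 10% of that median. In the first pair 9 of 10 points sit on the line and Mdm4 stands above it, while the other pairs scatter.

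Markers of cell identity and state differed between the columns. All 11 HSC identity genes were present in both columns of the transcript table, with lowest levels of 9.57 FPKM in BM and 3.32 FPKM in FL; 4 of them were at least 2-fold higher in BM and none lower. In BM of that table all 10 macrophage markers, 9 of 10 erythroid markers and 8 of 10 neutrophil and monocyte markers were at least 2-fold lower, as were 7 of 10 proliferation, 6 of 7 hepatocyte and 5 of 10 endothelial markers, and 4 of 8 megakaryocyte markers and 8 of 9 expressed immediate early and heat shock genes were at least 2-fold higher. The immediate early gene Fos was at 158 FPKM in BM and 0.422 FPKM in FL there. The macrophage marker Timd4 and the erythroid marker Alas2 were listed at 0 in BM. The gene table held lists in both directions. All 10 endothelial markers were lower in BM there, with sums of 149.6 FPKM in BM and 2825 FPKM in FL. All 9 stromal markers were lower as well (17.5 FPKM in BM and 806 FPKM in FL), with Dcn and Lum listed at 0 in BM, and so were 11 of 12 immediate early and heat shock genes (135 FPKM in BM and 1138 FPKM in FL). Higher in BM were 7 of 10 erythroid markers (357 FPKM in BM and 102 FPKM in FL) and 9 of 10 neutrophil and monocyte markers (655 FPKM in BM and 135 FPKM in FL). Macrophage markers were split, with 4 of 10 higher and 6 lower, as were megakaryocyte markers, with 4 of 8 higher and 3 lower. Of 7 hepatocyte markers 3 were higher and 1 lower, and of 10 proliferation markers 1 was higher. Among the 11 HSC identity genes 6 were higher in BM, such as Slamf1 at 14.9 FPKM in BM and 0.652 FPKM in FL, and 2 were lower, Cd34 at 120.4 FPKM in BM and 279 FPKM in FL and Procr at 54.0 FPKM in BM and 121 FPKM in FL. The part of these differences in the results below was not tested.

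Trp53 was by far the most abundant of the 10 genes in every column. It was at 129 FPKM in BM and 187 FPKM in FL of the transcript table, above 95.7% and 96.4% of expressed genes, which here means genes that reach 1 FPKM in at least 1 of a table's columns. In the gene table it was at 197 FPKM in BM and 145 FPKM in FL. The second most abundant gene was Sesn1 in 3 columns and Mdm2 under FL of the gene table, and Trp53 exceeded it by 3.24-fold to 4.82-fold. The least abundant were Zmat3 in 3 columns, at 1.51 to 1.95 FPKM, and Sesn2 in the FL column of the gene table, at 3.66 FPKM. Without replicates it cannot be said which neighbours in this order differ beyond their spread.

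**Figure D2:**
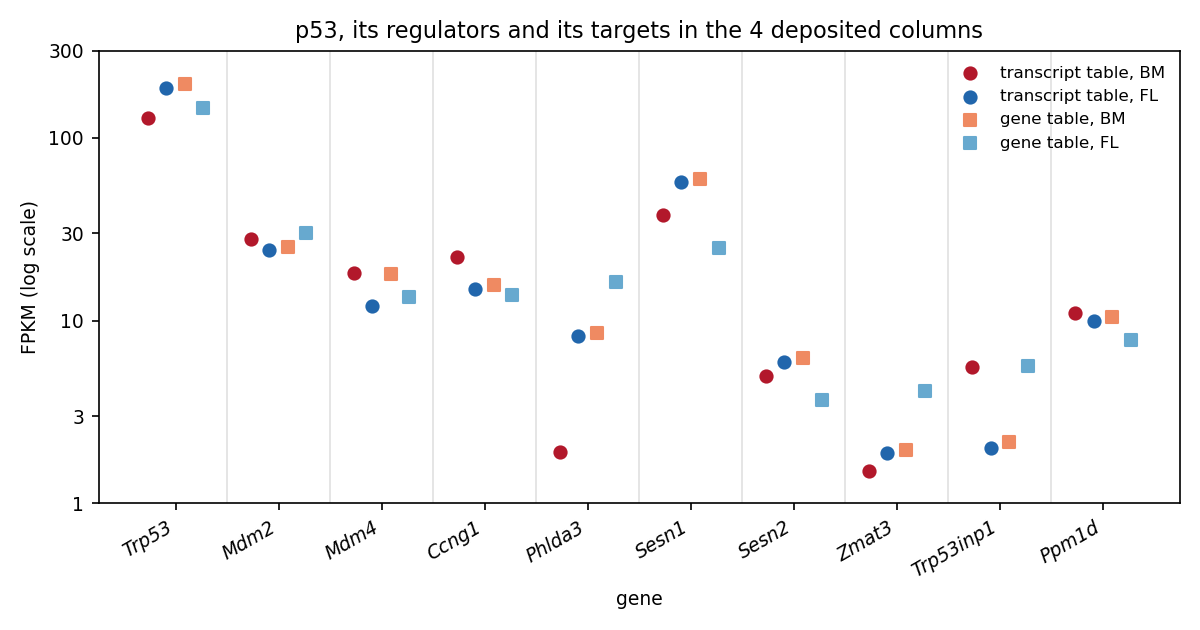
FPKM on a log scale of the 10 genes in the 4 deposited columns; each point is 1 value and there are no error bars because no column has replicates. Trp53 is highest in every column, and Phlda3 and Trp53inp1 show the widest spread among columns.

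The comparison of BM with FL used a relative log2 ratio, the log2 of BM over FL after adding 0.1 FPKM to each, from which the median gene's value was subtracted. That median was taken over genes reaching 1 FPKM in both columns. The pseudocount of 0.1 FPKM understates the difference of very low genes. In the transcript table, 1 of the 10 genes was at least 2-fold higher in BM, where 13.3% of 12221 expressed genes were. Another 1 was at least 2-fold lower, where 8.82% of expressed genes were, and 8 were within 2-fold. The median relative log2 ratio was -0.07 for the 10 genes and 0.02 for all expressed genes. In number, then, the group did not stand out from expressed genes. Of all calls made there, 60.1% were higher in BM, and 71.3% when the columns were scaled to equal totals without centring.

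Trp53 had a relative log2 ratio of -0.54 in the transcript table, outside the middle 50% of expressed genes, which ran from -0.44 to 0.54, and within 2-fold. Its main transcript Trp53-203, with 11 exons and a coding sequence of 1170 bases, was at 117 FPKM in BM and 161 FPKM in FL, or 90.1% and 85.9% of the gene's total. The other coding transcripts were smaller. Trp53-202 was at 6.96 FPKM in BM and 13.0 FPKM in FL, and Trp53-201 at 2.72 FPKM in BM and 11.0 FPKM in FL. The last of these had the largest difference among the coding transcripts of Trp53, with a relative log2 ratio of -1.99 on 2.10% of the gene's BM total. The related family genes Trp63 and Trp73 were listed at 0 in both columns. Among 26967 genes in both tables, the nearest to Trp53 in log2 level over the 4 columns were Ptges3, Limd2 and Uba1, at Euclidean distances of 0.08, 0.11 and 0.11. Since BM of the gene table and FL of the transcript table nearly match, these distances do not rest on 4 independent columns.

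The p53 inhibitors Mdm2, Mdm4 and Ppm1d were near equal or somewhat higher in BM of the transcript table. Mdm2 encodes the ubiquitin ligase that marks p53 for degradation and is itself a p53 target, and was at 28.1 FPKM in BM and 24.2 FPKM in FL. Mdm4 encodes a relative of Mdm2 that binds and blocks p53, and was at 18.3 FPKM in BM and 12.0 FPKM in FL. Ppm1d, the gene of a phosphatase that reverses damage signalling to p53, was at 11.0 FPKM in BM and 9.95 FPKM in FL. Their relative log2 ratios were 0.21, 0.60 and 0.13, all within 2-fold. Mdm2 exceeded Mdm4 by 1.53-fold in BM and 2.01-fold in FL. However, Mdm4 rests on 2 linked transcripts and its FL sum fell short of the gene table, as given above. That limits both its ratio of BM over FL and its comparison with Mdm2.

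Much of the Mdm2 signal lay in transcripts not annotated as protein coding, since coding transcripts held 54.0% of it in BM and 56.0% in FL. Mdm2-201, the main coding transcript, held 54.0% of the gene's total in BM and 55.5% in FL. The short processed transcript Mdm2-203 held 19.4% in BM and 25.5% in FL. The mouse Mdm2 gene is known to have a p53-responsive promoter inside its first intron. The annotation has 3 transcripts that start 466 to 736 bases downstream of the main start site, Mdm2-206, Mdm2-207 and Mdm2-209, and none of them is annotated as protein coding. Together they were at 2.72 FPKM in BM and 2.01 FPKM in FL, or 9.67% and 8.34% of the gene. Within them Mdm2-209, annotated for nonsense-mediated decay, was at 1.86 FPKM in BM and 0.113 FPKM in FL, while Mdm2-207 was at 0.862 FPKM in BM and 1.77 FPKM in FL. Reads are shared among these overlapping transcripts by a model, so the separate values are estimates.

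**Figure D3:**
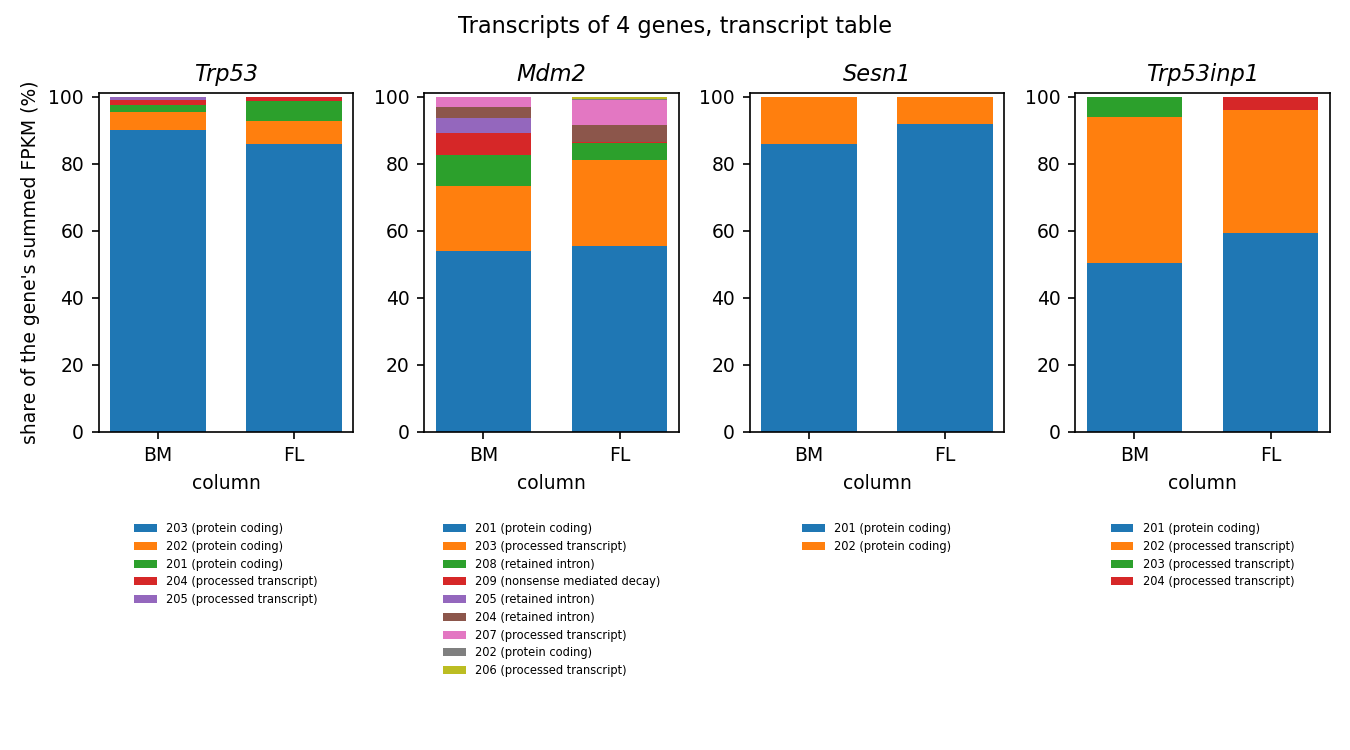
Share of each gene's summed FPKM held by each annotated transcript at 0.1% or more of the gene in either column, in the BM (left bar) and FL (right bar) columns of the transcript table, for 4 genes. The main transcript is the same in both columns for each gene, with 54.0% and 55.5% of Mdm2 and 85.8% and 92.0% of Sesn1.

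The targets differed among themselves in the transcript table. Phlda3, whose product competes with the survival kinase Akt for membrane lipids, had the lowest ratio of the 10 genes. It was at 1.91 FPKM in BM and 8.19 FPKM in FL, a relative log2 ratio of -2.05 or 4.15-fold lower. Trp53inp1, a stress-induced regulator of p53 activity and autophagy, was the gene at least 2-fold higher. It was at 5.58 FPKM in BM and 2.01 FPKM in FL, a relative log2 ratio of 1.42 or 2.68-fold higher. The coding transcript Trp53inp1-201 was at 2.82 FPKM in BM and 1.19 FPKM in FL, and the processed transcript Trp53inp1-202 at 2.42 FPKM in BM and 0.745 FPKM in FL, so both were higher in BM.

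Ccng1, whose product binds a phosphatase that acts on Mdm2, was at 22.3 FPKM in BM and 14.9 FPKM in FL, within 2-fold at a relative log2 ratio of 0.57. Its promoter holds the closest consensus match shown above. The sestrin genes Sesn1 and Sesn2, whose products restrain growth signalling through mTOR, were both on the lower side and within 2-fold. Sesn1 was at 37.7 FPKM in BM and 57.6 FPKM in FL, and Sesn2 at 4.97 FPKM in BM and 5.97 FPKM in FL. Sesn1 exceeded Sesn2 by 7.59-fold in BM and 9.66-fold in FL. Zmat3, the gene of an RNA-binding zinc finger protein that regulates splicing, was at 1.51 FPKM in BM and 1.88 FPKM in FL.

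Sesn1 is transcribed from start sites 76865 bases apart, and its coding transcripts begin at different ones. Sesn1-201 starts at the downstream promoter. Sesn1-202 starts near the upstream one, at position -639 from its RefSeq start site, and was at 5.37 FPKM in BM and 4.61 FPKM in FL. The downstream transcript held 85.8% of the gene in BM and 92.0% in FL, and the lower Sesn1 level in BM lay in that transcript. Both promoters are shown with their best consensus match in capitals, 14 of 20 bases upstream (the first of 3 equal matches) and 17 of 20 downstream.
Sesn1 upstream promoter, chr10:41810324-41810623, plus strand: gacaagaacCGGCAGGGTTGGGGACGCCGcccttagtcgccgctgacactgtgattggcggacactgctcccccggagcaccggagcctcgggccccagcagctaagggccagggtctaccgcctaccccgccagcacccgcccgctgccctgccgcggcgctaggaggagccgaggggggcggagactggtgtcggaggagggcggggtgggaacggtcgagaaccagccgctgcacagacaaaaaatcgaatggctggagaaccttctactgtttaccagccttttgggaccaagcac
Sesn1 downstream promoter, chr10:41887189-41887488, plus strand: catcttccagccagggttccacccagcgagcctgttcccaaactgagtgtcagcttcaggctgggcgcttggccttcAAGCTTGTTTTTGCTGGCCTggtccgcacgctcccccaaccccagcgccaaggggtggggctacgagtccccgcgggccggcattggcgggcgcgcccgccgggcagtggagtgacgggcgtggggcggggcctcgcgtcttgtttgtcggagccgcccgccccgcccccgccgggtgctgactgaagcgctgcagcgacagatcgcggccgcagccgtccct

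The Phlda3 promoter is shown because this gene had the lowest ratio of the 10 in the transcript table. Its best match, in capitals, has 15 of 20 bases.
Phlda3 promoter, chr1:135765835-135766134, plus strand: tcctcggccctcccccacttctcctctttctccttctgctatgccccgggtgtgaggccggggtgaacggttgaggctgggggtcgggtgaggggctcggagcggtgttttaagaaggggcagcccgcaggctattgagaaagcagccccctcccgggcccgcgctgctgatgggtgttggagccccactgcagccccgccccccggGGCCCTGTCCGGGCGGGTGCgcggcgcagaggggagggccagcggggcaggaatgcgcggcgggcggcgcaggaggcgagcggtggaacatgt

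Under the headers of the gene table, 1 of the 10 genes was at least 2-fold higher in BM, where 12.3% of 13834 expressed genes were, and 3 were at least 2-fold lower, where 23.6% of expressed genes were. The other 6 were within 2-fold. The median relative log2 ratio was 0.05 for the 10 genes and -0.07 for all expressed genes. The median gene of this table was shifted by 0.24 (log2) before centring. Of all calls 34.3% were higher in BM, and 45.7% without centring.

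The 3 lower genes were all targets. Trp53inp1 was at 2.17 FPKM in BM and 5.63 FPKM in FL, a relative log2 ratio of -1.57. Zmat3 was at 1.95 FPKM in BM and 4.12 FPKM in FL, with -1.28. Phlda3 was at 8.57 FPKM in BM and 16.2 FPKM in FL, with -1.15, which became -0.91 without centring and -0.99 under upper-quartile scaling. The higher gene was Sesn1, at 59.5 FPKM in BM and 24.9 FPKM in FL, with a relative log2 ratio of 1.01 that lies just past the 2-fold limit. The endothelial, stromal and immediate early genes lower in the same column are given above.

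Trp53 and the inhibitors Mdm2, Mdm4 and Ppm1d were within 2-fold in the gene table. Relative log2 ratios were 0.20 for Trp53, -0.49 for Mdm2, 0.18 for Mdm4 and 0.17 for Ppm1d. Mdm2 was at 25.3 FPKM in BM and 30.1 FPKM in FL, and Mdm4 at 17.9 FPKM in BM and 13.4 FPKM in FL, so that Mdm2 exceeded Mdm4 by 1.42-fold in BM and 2.25-fold in FL. Ppm1d was at 10.4 FPKM in BM and 7.80 FPKM in FL. Ccng1, at 15.6 FPKM in BM and 13.8 FPKM in FL, and Sesn2, at 6.22 FPKM in BM and 3.66 FPKM in FL, were within 2-fold as well.

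**Figure D4:**
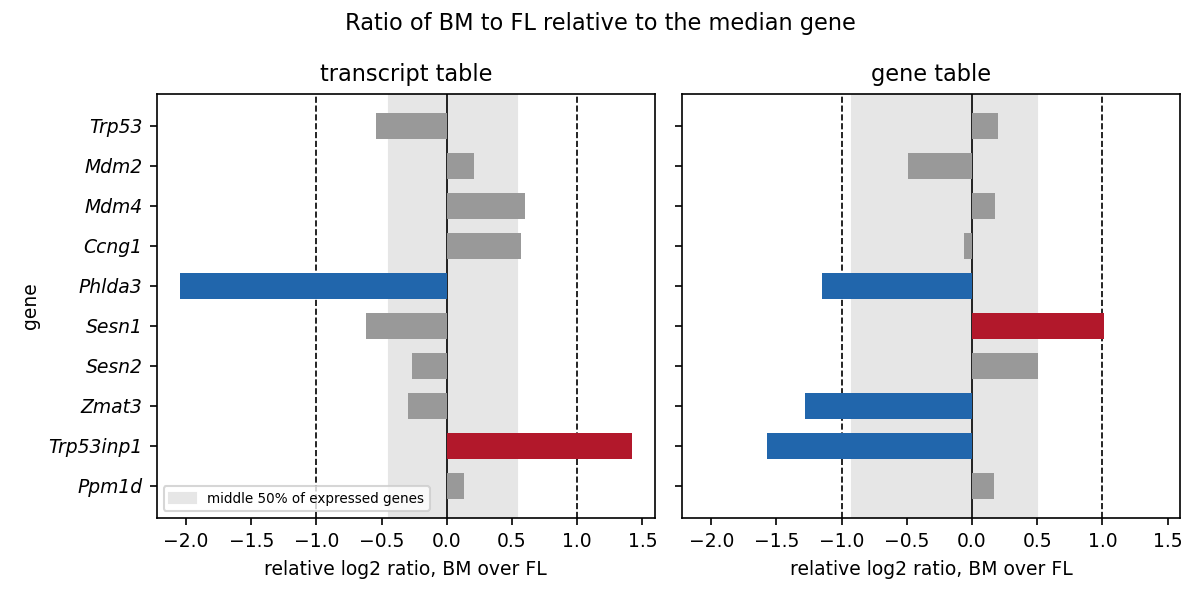
Relative log2 ratio of BM over FL for the 10 genes in the transcript table (left) and the gene table (right); dashed lines mark 2-fold, grey bands the middle 50% of expressed genes, and red and blue bars genes past 2-fold. Past 2-fold are Trp53inp1 and Phlda3 in the transcript table and Sesn1, Trp53inp1, Zmat3 and Phlda3 in the gene table, whose BM header is in doubt.

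Because the gene table's BM values match the transcript table's FL values, the tables share a set of values on opposite sides, and opposite signs between them are partly built in. Read by column, Trp53inp1 was at 5.58 FPKM in BM of the transcript table and 5.63 FPKM in FL of the gene table, and at 2.01 and 2.17 FPKM in the matching pair. Phlda3 was ordered otherwise, at 1.91 FPKM in BM of the transcript table, 8.19 and 8.57 FPKM in the matching pair and 16.2 FPKM in FL of the gene table. Sesn1 was highest in the matching pair and lower in both other columns. These levels stand in tables that were normalised separately.

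Genes that signal to p53 or regulate it were within 2-fold between BM and FL when summed from transcripts. Of all expressed genes 77.9% were within 2-fold there, 13.3% were higher in BM and 8.82% lower. Of 10 expressed family and upstream kinase genes none was past 2-fold (median relative log2 ratio 0.11). The damage kinase genes Atm and Atr were at 5.40 and 8.00 FPKM in BM and at 3.09 and 4.40 FPKM in FL. Of 21 expressed other regulators none was past 2-fold either (median 0.15). The lowest ratios among them lay just inside that limit on the lower side, with Ppp1r13l at 5.56 FPKM in BM and 11.1 FPKM in FL, and Kmt5a at 62.2 FPKM in BM and 119.8 FPKM in FL (relative log2 ratio -0.95 for Kmt5a). Cdkn2a, which encodes the Arf inhibitor of Mdm2, was listed at 0 in both columns. Mapk14, a stress kinase gene, was at 99.6 FPKM in BM and 36.8 FPKM in FL, in the gene table, the single one of 10 family and kinase genes past 2-fold there. Among the 21 expressed other regulators there, Kmt5a, whose product methylates p53, and Ppp1r13l, an inhibitor of p53, were at least 2-fold higher in BM, at 1.23 for Kmt5a and 1.15 for Ppp1r13l, opposite in sign to their transcript table ratios. Ndn, a p53-binding protein gene linked to HSC quiescence, was lower, at 22.9 FPKM in BM and 59.9 FPKM in FL, as was the ubiquitin ligase gene Trim24.

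Cell cycle targets of p53 were mixed in the transcript table, with 2 of 11 expressed genes higher in BM and 1 lower (median 0.28), where 13.3% of all expressed genes were higher and 8.82% lower. Cdkn1a, which encodes the cell cycle inhibitor p21, was at 2.60 FPKM in BM and 4.08 FPKM in FL, within 2-fold. The higher genes were Ptprv, a phosphatase gene at 9.12 FPKM in BM and 1.57 FPKM in FL, and the kinase gene Plk3, at 1.72 FPKM in BM and 0.635 FPKM in FL. Plk3 counts as expressed there through BM alone. Gtse1, a mitotic inhibitor of p53, was lower, at 5.87 FPKM in BM and 17.6 FPKM in FL; 7 of 10 proliferation markers were lower in the same column. Counted in the gene table, 5 of 11 expressed cell cycle targets were lower in BM and 1 was higher (median -0.33), where 23.6% of all expressed genes were lower and 12.3% higher. Cdkn1a was at 4.28 FPKM in BM and 22.2 FPKM in FL there; Fos, among the immediate early genes, was at 0.477 FPKM in BM and 138 FPKM in FL. The kinase gene Plk2 was at 1.84 FPKM in BM and 151 FPKM in FL, and the antiproliferative gene Btg2 at 5.10 FPKM in BM and 50.4 FPKM in FL. Plk3, higher in BM of the transcript table, was lower in BM here, at 0.662 FPKM in BM and 3.51 FPKM in FL. It counts as expressed in the gene table through FL alone. In the transcript table Plk2 was at 3.63 FPKM in BM and 1.77 FPKM in FL, and Btg2 at 8.54 FPKM in BM and 4.91 FPKM in FL, both within 2-fold. The part of the immediate early response in these values was not tested. The higher gene was Cd82, a membrane protein gene, at 40.8 FPKM in BM and 11.3 FPKM in FL.

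Cell death targets had a median relative log2 ratio of -0.35 in the transcript table, with 1 of 12 expressed genes lower in BM, beside 8.82% of all expressed genes, and 2 higher, beside 13.3%. Bax, which encodes a pore-forming death effector, was the lower gene, at 39.9 FPKM in BM and 85.7 FPKM in FL. Bbc3, the gene of the death activator Puma, was at 11.9 FPKM in BM and 14.2 FPKM in FL. Pmaip1, the gene of Noxa, was under 1 FPKM in both columns. Perp, a membrane protein gene, and Trp53i11 were higher, with Trp53i11 at 17.1 FPKM in BM and 6.84 FPKM in FL. Perp counts as expressed in the transcript table through BM alone, where its level was only just above 1 FPKM. Counted likewise in the gene table, 6 of 14 expressed death targets were lower in BM, beside 23.6% of all expressed genes, and none was higher, beside 12.3%. The lower genes included the death receptor gene Fas, at 0.464 FPKM in BM and 4.22 FPKM in FL, and Pmaip1, at 0.654 FPKM in BM and 4.49 FPKM in FL. Perp was lower there too, at 0.375 FPKM in BM and 1.57 FPKM in FL. Fas, Pmaip1 and Perp count as expressed in the gene table through FL alone, which is the column where they are higher. Bax was at 116 FPKM in BM and 107 FPKM in FL there.

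Of the repair and metabolism targets, 6 of 22 expressed genes were higher in BM when summed from transcripts, beside 13.3% of all expressed genes, and 2 were lower, beside 8.82% (median 0.04). Rrm2b, which encodes the p53-inducible subunit of ribonucleotide reductase, was at 9.53 FPKM in BM and 3.55 FPKM in FL, and the lesion-bypass polymerase gene Polk at 3.56 FPKM in BM and 1.48 FPKM in FL. Tap1, the gene of a peptide transporter that serves MHC class I and also responds to interferon, was at 73.4 FPKM in BM and 20.6 FPKM in FL, and the detoxifying enzyme gene Ephx1 at 5.34 FPKM in BM and 1.85 FPKM in FL. The lower genes were Tigar, a brake on glycolysis, at 0.843 FPKM in BM and 2.09 FPKM in FL, and Prkab1, a subunit gene of the energy-sensing kinase AMPK. Tigar counts as expressed there through FL alone. Of 24 expressed in the gene table, 1 was higher in BM, again Tap1, beside 12.3% of all expressed genes, and 3 were lower, beside 23.6%. Ddit4, a brake on mTOR signalling, was at 7.49 FPKM in BM and 59.7 FPKM in FL there, while in the transcript table it was among the higher genes, at 16.4 FPKM in BM and 7.18 FPKM in FL. Tigar was at 2.18 FPKM in BM and 4.71 FPKM in FL of the gene table.

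**Figure D5:**
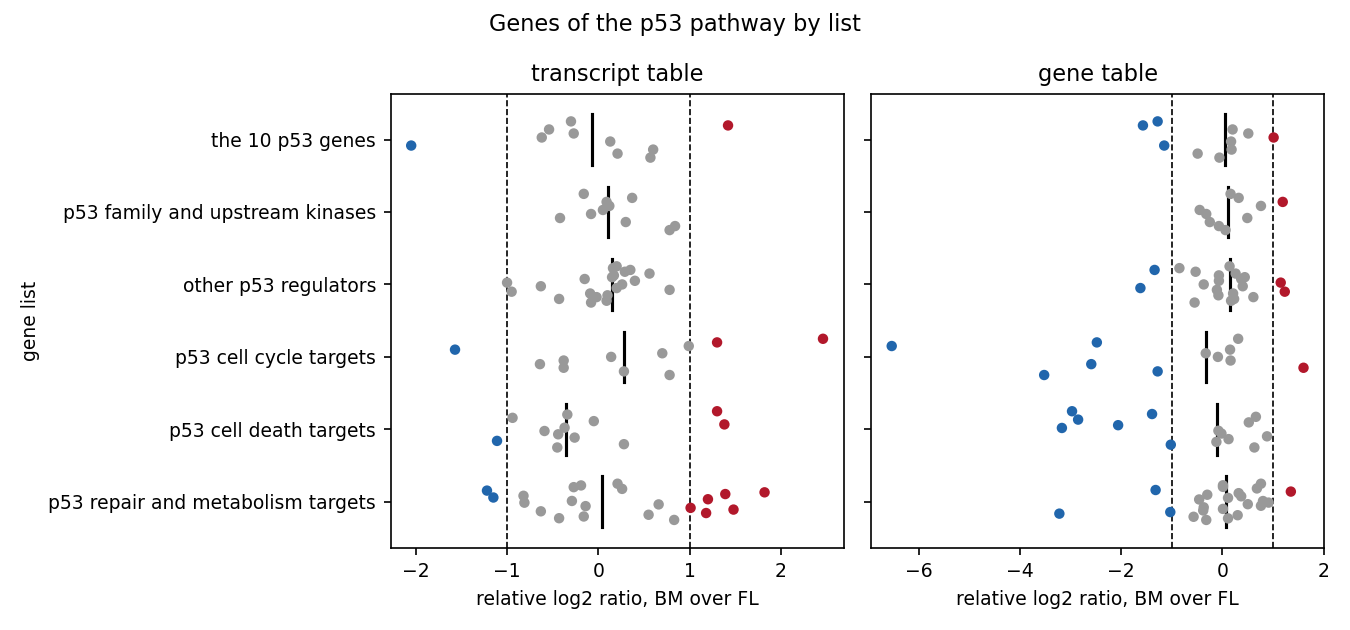
Relative log2 ratio of BM over FL for each expressed gene (points) of the 10 p53 genes and 5 other lists in the transcript table (left) and the gene table (right, wider axis); black bars are list medians, dashed lines mark 2-fold, and red and blue points are past it. The regulator lists stay within 2-fold in the transcript table, as do 77.9% of all expressed genes. Plk2, at -6.53 in the gene table, is the lowest point.

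Close relatives of the targets were seen beside them. Sesn3, the third sestrin gene, was at 9.76 FPKM in BM and 4.25 FPKM in FL of the transcript table, higher in BM where Sesn1 and Sesn2 were not. Its gene table values were 4.43 FPKM in BM and 8.79 FPKM in FL. Phlda2, a relative of Phlda3, was at 8.22 FPKM in BM and 2.44 FPKM in FL of the transcript table, so that the higher of these relatives there was Phlda2 in BM and Phlda3 in FL. In the gene table Phlda2 was at 2.56 FPKM in BM and 1.67 FPKM in FL, below Phlda3 in both columns. Zmat1 was at 2.67 FPKM in BM and 0.639 FPKM in FL of the transcript table, and at 0.689 and 1.14 FPKM in the gene table. Phlda1 and Trp53inp2 were under 1 FPKM in 3 columns and at 14.6 and 14.9 FPKM in FL of the gene table. Ccng2 was within 2-fold in the transcript table (17.9 FPKM in BM and 14.7 FPKM in FL) and lower in BM of the gene table (15.2 FPKM in BM and 31.4 FPKM in FL), and the phosphatase genes Ppm1a and Ppm1b were within 2-fold in both tables.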

How the data were processed

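The authors deposited FPKM values in a gene table and a transcript table, each with a BM and an FL column. Per the submitters' processing notes, the tools were TopHat, Cufflinks, featureCounts, Subread and edgeR, with mm9 as the build; roles, order and versions are not given there. Non-zero values go down to 5e-309, so whole reads could not be recovered and the depth is unknown. Of the gene table's FL column, 66.4% of non-zero values have the repeating decimals of a mean of 3 values. In the other columns most 7-digit values end in 5 (87.9% to 91.6%), as a mean of 2 values leaves. BM columns were assigned to the adult samples by header alone.

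Symbols and transcript links came from GENCODE M21 by identifier (32838 of 37820 genes, 76512 of 87641 transcripts), and promoter sequences from RefSeq (GRCm38.p6), matched by symbol. Transcript FPKM were summed per gene. Ratios used a pseudocount of 0.1 FPKM and median centring, and calls used 2-fold among genes at 1 FPKM or more in either column. This was tested on simulated data, with planted changes larger than 2-fold in genes at 5 FPKM or more. Calls close to 2-fold or near 1 FPKM were not covered by it. Python 3.11.15, numpy 2.4.6, pandas 2.3.3 and matplotlib 3.10.9 were used.

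The genes and lists were chosen with earlier results of these data known. The 10 genes were always named. From each list the rule took up to 4 genes per direction with the largest ratios past 2-fold, plus Cdkn1a, Bax, Bbc3, Pmaip1, Atm and Atr, relatives of the 10 genes at 1 FPKM or more in any column, and the 3 genes nearest to Trp53. From each marker list it took the gene with the highest level and up to 3 others with 10-fold or more between columns; of these only Fos, Slamf1, Cd34, Dcn and Lum are printed. Procr, Timd4, Alas2, the transcript table values of Ppp1r13l, Kmt5a, Plk2, Btg2 and Ddit4, the family genes at 0, Cdkn2a and the transcripts named were chosen after their values were seen. Usp10 and Ptprv had no value in the gene table under these identifiers.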

Additional observations from a re-analysis of the deposited data

How the results depend on the processing

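No replicate values are in the tables, so leaving out a replicate was not run. No paired analysis was possible because the columns carry no replicate numbers. The 2-fold counts of the 10 genes, 1 higher and 1 lower in BM of the transcript table and 1 higher and 3 lower in the gene table, stayed within 1.5 times under other pseudocounts, filters, scalings and transcript choices. At a threshold of 1.5-fold in the transcript table they were 2 higher and 2 lower, with Mdm4 at 0.60 and Sesn1 at -0.62 added. The Mdm4 value has the limit of its FL sum given above. At that threshold 23.6% of all expressed genes were higher and 19.1% lower. In the gene table Zmat3 was not counted with a filter at 5 FPKM, and Phlda3 was not counted without centring (-0.91) or under upper-quartile scaling (-0.99). Over the other pathway lists, 10 genes were higher and 4 lower in the transcript table, and 5 and 16 in the gene table. These lists, in the order described above, had 10, 21, 11, 12 and 22 expressed genes in the transcript table. In the gene table they had 10, 21, 11, 14 and 24. Of all expressed genes 13.3% were higher and 8.82% lower in the transcript table, and 12.3% and 23.6% in the gene table. In the transcript table the higher genes were 6 with a pseudocount of 1 and 18 at 1.5-fold, beside 8.92% and 23.6% of expressed genes. The lower genes there were 2 with equal column totals and 13 at 1.5-fold, beside 6.96% and 19.1%. In the gene table the higher genes were 10 without centring and 15 at 1.5-fold, beside 17.2% and 22.2% of expressed genes. The lower genes there were 10 with a filter at 5 FPKM, beside 19.2% of genes that pass it. Of 180 ratios of single genes under an alternative, 175 kept their side of the threshold, 3 lost it and 2 passed it. No ratio past 2-fold changed sign. Ccng1 in the gene table, at -0.06 and within 2-fold, did: it was 0.18 without centring and 0.10 under upper-quartile scaling. The match of the tables held for 9 of 10 genes at tolerances of 5% and 20%, which were chosen after seeing the data. The causes of these shifts were not tested beyond what each alternative changes. The unknown depth limits the low genes most.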
